A study of Mus musculus with 8 samples.

Results

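The choroid plexus is the secretory epithelium of the brain ventricles. In the telencephalon it grows from the dorsal midline, next to the cortical hem, and its cells make cerebrospinal fluid by moving ions and water and by secreting carrier proteins. BMP signals at the midline, together with transcription factors such as OTX2 and LMX1A, are known to direct cells there to the plexus fate, and its cells carry tufts of cilia. A set of 10 genes known for high expression in this epithelium was followed: Ttr, Folr1, Htr2c, Clic6, Kcne2, Slc4a5, Calml4, Sostdc1, Kl and Aqp1. They were found by symbol, all 10 among 43629 listed gene IDs, and 9 of them were among the 15382 genes with enough reads to be tested. Kl was too low.

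RNA sequencing was done on dorsal forebrain of male mouse embryos at E12.5 (mixed background with C57BL/6J). The 4 mutants (Sufu-cKO: Mut_340, Mut_337, Mut_317, Mut_295) were Emx1-cre/+;Sufu-fl/fl. The 4 controls (Cont_370, Cont_365, Cont_345, Cont_294) were Sufu-fl/fl or Sufu-fl/+, with the allele number of each not given and no cre allele named. Every sample thus carried at least 1 floxed Sufu allele. SUFU restrains Sonic hedgehog signalling by holding GLI transcription factors, and Emx1-cre acts in dorsal telencephalic progenitors and their descendants, so that cells of other origins in the tissue keep Sufu. The comparison addresses how removing Sufu changes the dorsal forebrain, and here what became of plexus transcripts. The tissue was sequenced in bulk, so fewer plexus cells and less RNA per plexus cell cannot be told apart. How much midline tissue each sample held was not measured.

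Libraries held 27514357 to 34878838 counts. Levels are in CPM, the count scaled to the size of its library, and fold changes are Sufu-cKO over control. The threshold for a call was 0.05 on the Benjamini-Hochberg adjusted p of edgeR's quasi-likelihood test over all tested genes. Sufu stood at 105 to 125 CPM in the control samples and 35.9 to 44.8 CPM in the Sufu-cKO samples. Markers of cortex were abundant in every library (8 genes, summed 1810 to 2364 CPM). A pair of Sufu-cKO libraries stood apart. Mut_340 had the lowest level of 8 of the 10 plexus genes, and Mut_337 had more transcript of stroma and meninges genes (10 genes, summed 1596 CPM) than the other 7 libraries (734 to 974 CPM). Calls and fold changes of plexus genes that rest on either are given with and without it.

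Plexus genes were lower in Sufu-cKO. Of the 9 tested genes 6 fell and 0 rose, where 5.64% of all tested genes fell. For 8 of the 10 the groups were separate, with the highest Sufu-cKO value under the lowest control value, which held for 7.86% of tested genes. A log2 fold change under -1 was found for 7 of them and for 1.88% of tested genes. Of the 7, Calml4 was not under -1 without Mut_340 (-0.93). The median log2 fold change of the 9 genes was -1.33, against 0.0071 over all tested genes. Each of the 9 had at least 30 counts in every library, so none was tested through its control samples alone. Summed over the 10 genes, the level was 605, 649, 783 and 491 CPM in the controls, and 268, 252, 230 and 76.8 CPM in the mutants. The highest mutant sum was thus well under the lowest control sum. Here and below, the values of a group are in ascending order of sample number.

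**Figure D1:**
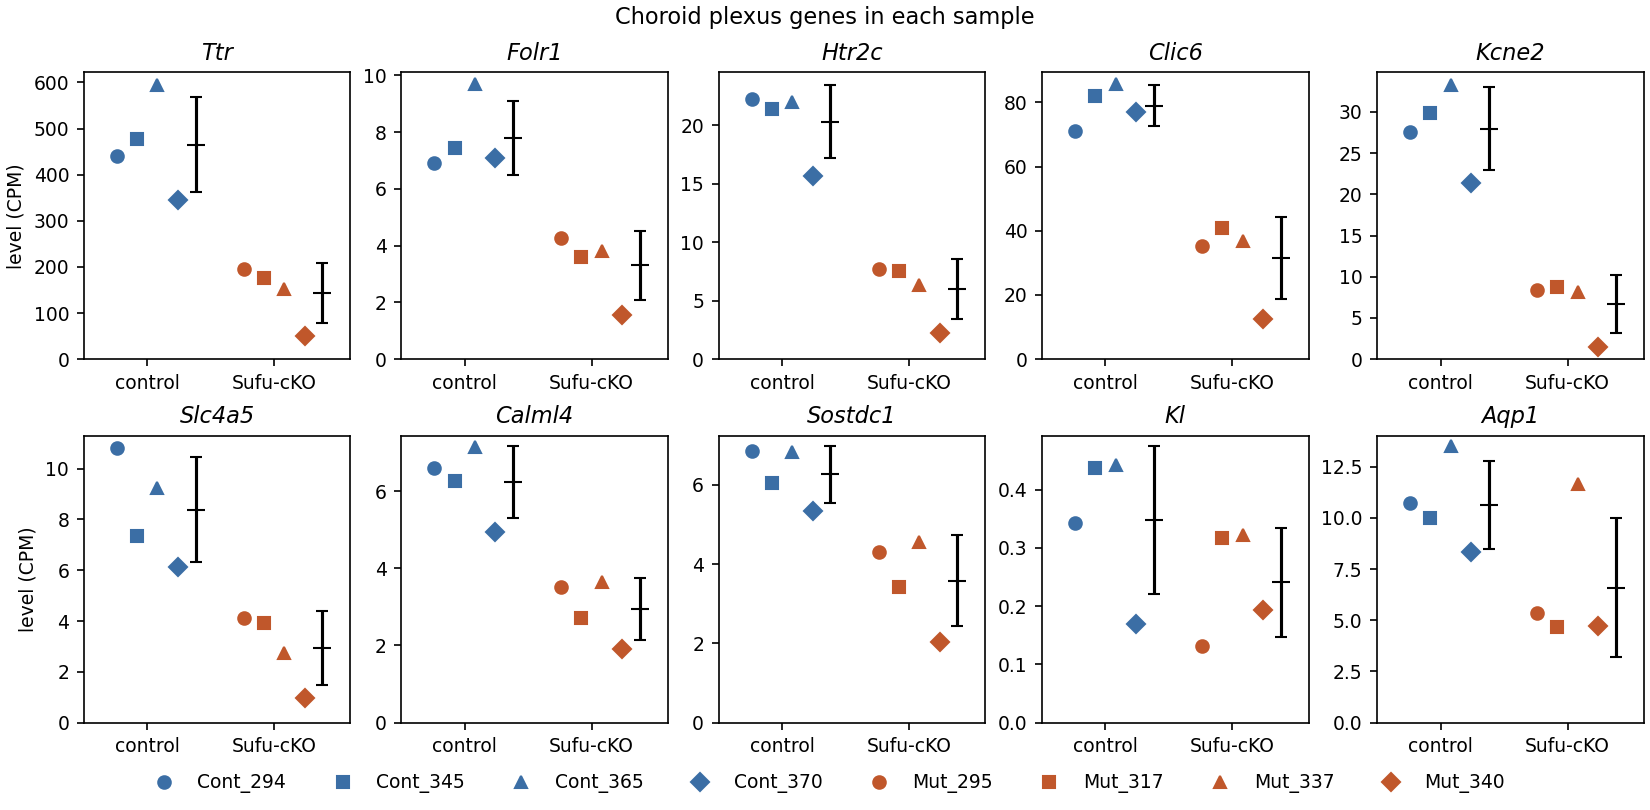
Level of each choroid plexus gene in CPM (vertical axis, from 0, own scale per gene) in the 4 control samples (blue) and 4 Sufu-cKO samples (orange), with the group mean and SD as a black bar. For 8 genes no Sufu-cKO point reaches a control point. Kl and Aqp1 overlap, and Mut_340 (orange diamond) is lowest for the other 8.

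Among the carriers and receptors, Ttr encodes transthyretin, which carries thyroxine into cerebrospinal fluid and is the most abundant transcript of the set. Ttr (ENSMUSG00000061808, chromosome 18) measured 442, 478, 595 and 345.4 CPM in control and 195, 176, 152 and 49.2 CPM in Sufu-cKO samples. The groups did not overlap, and the lowest value, in Mut_340, was 32.3% of the next lowest mutant value. The mean went from 465 ± 103 to 143 ± 65.1 CPM (SD, n = 4 each), a log2 fold change of -1.70 (SE 0.435) that missed the threshold in edgeR (adjusted p = 0.0591). Without Mut_340 Ttr was called (at -1.42 on the log2 scale, adjusted p = 0.00632 in edgeR), and without any other 1 sample it was not. DESeq2 (adjusted p = 0.0015) and edgeR without robust estimation (0.00796) called Ttr, and the other 6 alternatives of scaling, filter or test did not. Ttr also overlaps an antisense gene model, Gm16090, and the strand setting of the counting is not given.

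Folr1 (ENSMUSG00000001827, chromosome 7, 101858331 to 101870788) encodes the folate receptor that takes folate across the plexus. It measured 6.89, 7.44, 9.70 and 7.09 CPM in control and 4.27, 3.59, 3.81 and 1.55 CPM in Sufu-cKO samples. All Sufu-cKO samples were below all controls, and Mut_340 was again lowest. On average Folr1 fell by 1.23 on the log2 scale (SE 0.261, adjusted p = 0.0110 in edgeR) from a mean of 7.78 ± 1.30 to 3.31 ± 1.20 CPM (SD, n = 4 each). Its gene model overlaps Anapc15 on the opposite strand.

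Htr2c (ENSMUSG00000041380, chromosome X, 146962513 to 147197277), a serotonin receptor best known from this epithelium, fell 3.40-fold. Control samples stood at 22.3, 21.4, 22.0 and 15.6 CPM, and Sufu-cKO samples at 7.75, 7.53, 6.36 and 2.26 CPM. Even Cont_370, low among the controls, was above all Sufu-cKO samples. The log2 fold change was -1.77 (SE 0.332, adjusted p = 0.0112 in edgeR, n = 4 each). Without Mut_340 it was -1.50, with a smaller SE (0.145) and an adjusted p of 0.000103 in edgeR. Without Cont_370 it was -1.88 (adjusted p = 0.0147 in edgeR).

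The remaining gene of this kind, Kl, encodes klotho, a membrane protein and co-receptor for FGF23. Kl (ENSMUSG00000058488, chromosome 5, 150952607 to 150993809) had 10, 12, 14 and 6 counts in control and 4, 9, 11 and 6 counts in Sufu-cKO samples. The groups overlapped, and a difference was not detectable at this depth. The authors' deposited table gives Kl a fold change of 0.693 with a false discovery rate of 1.

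Channels and transporters of fluid secretion held the largest fall. Kcne2 (ENSMUSG00000039672, chromosome 16, 92292389 to 92298129), a beta subunit of potassium channels at the apical membrane, measured 27.5, 29.8, 33.2 and 21.3 CPM in control and 8.41, 8.80, 8.21 and 1.45 CPM in Sufu-cKO samples. Mut_295, Mut_317 and Mut_337 lay close together, and Mut_340, with 45 counts, lay far below them. Kcne2 fell 4.17-fold, a log2 fold change of -2.06 (SE 0.481, adjusted p = 0.0380 in edgeR, n = 4 each). Without Mut_340 the log2 fold change was -1.73 (SE 0.143, adjusted p = 3.97e-05 in edgeR). Without any other 1 sample the call was lost (adjusted p from 0.0549 to 0.101 in edgeR).

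Clic6 (ENSMUSG00000022949, chromosome 16, 92485736 to 92541243), a chloride intracellular channel protein, lies downstream of Kcne2 on the same strand. It measured 71.2, 82.1, 85.7 and 77.0 CPM in control and 35.4, 40.9, 36.9 and 12.6 CPM in Sufu-cKO samples. The controls were tight (79.0 ± 6.30 CPM), and Mut_295, Mut_317 and Mut_337 lay close together. Clic6 missed the threshold (log2 fold change -1.33, SE 0.336, adjusted p = 0.0514 in edgeR, n = 4 each), while 6 of 8 alternatives of scaling, filter or test called it (adjusted p from 0.00307 to 0.101 over the 8). Of the fits that left out 1 sample, the one without Mut_340 called it (log2 fold change -1.07, SE 0.0789, adjusted p = 1.71e-05 in edgeR). Its locus holds another gene model on the same strand, 2410124H12Rik, which could share reads.

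Slc4a5 (ENSMUSG00000068323, chromosome 6, 83219828 to 83304945) encodes a sodium bicarbonate cotransporter of the apical membrane. It measured 10.8, 7.36, 9.26 and 6.13 CPM in control and 4.10, 3.94, 2.73 and 0.969 CPM in Sufu-cKO samples. The groups were separate although the controls spread widely. Slc4a5 fell by 1.52 on the log2 scale (SE 0.381, adjusted p = 0.0341 in edgeR, n = 4 each). It was called in 4 of the 8 fits that left out 1 sample, and the highest adjusted p among the others was 0.0882 (edgeR). Without Mut_337 the log2 fold change of Slc4a5 was -1.49 and the call was lost (adjusted p = 0.0875 in edgeR). Without Mut_340 it was -1.23 and was called (adjusted p = 0.00612 in edgeR).

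Aqp1, the water channel of the apical membrane, behaved unlike the others in Mut_337. Aqp1 (ENSMUSG00000004655, chromosome 6, 55336432 to 55348555) measured 10.7, 9.99, 13.5 and 8.33 CPM in control and 5.36, 4.65, 11.6 and 4.72 CPM in Sufu-cKO samples. Mut_337 lay among the controls, while the other 3 Sufu-cKO samples lay below all of them. The log2 fold change was -0.68 (95% interval -1.37 to 0.003, adjusted p = 0.224 in edgeR, n = 4 each), and without Mut_337 it was -1.12, which was called (adjusted p = 0.00147 in edgeR). Without Mut_340 it was -0.56 (adjusted p = 0.402 in edgeR). Mut_337 also stood highest for 8 of 10 stroma and meninges genes. Col1a2, a fibrillar collagen of connective tissue, read 378 CPM there against 120 to 173 CPM in the other libraries, and Col1a1, its partner chain in collagen, read 221 against 48.5 to 82.0 CPM. Mut_337 was also highest for 6 of 8 diencephalon genes, 4 of 8 hindbrain genes and Msx2 (12.6 CPM). Aqp1 is also known from red blood cells and vessels. The erythroid sum was 3069 CPM in Mut_337 against 2918 to 4554 CPM in the other libraries, and the endothelium sum 300 against 254 to 338 CPM. The part of stroma, blood, vessels or other tissue in the Aqp1 value was not tested.

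**Figure D2:**
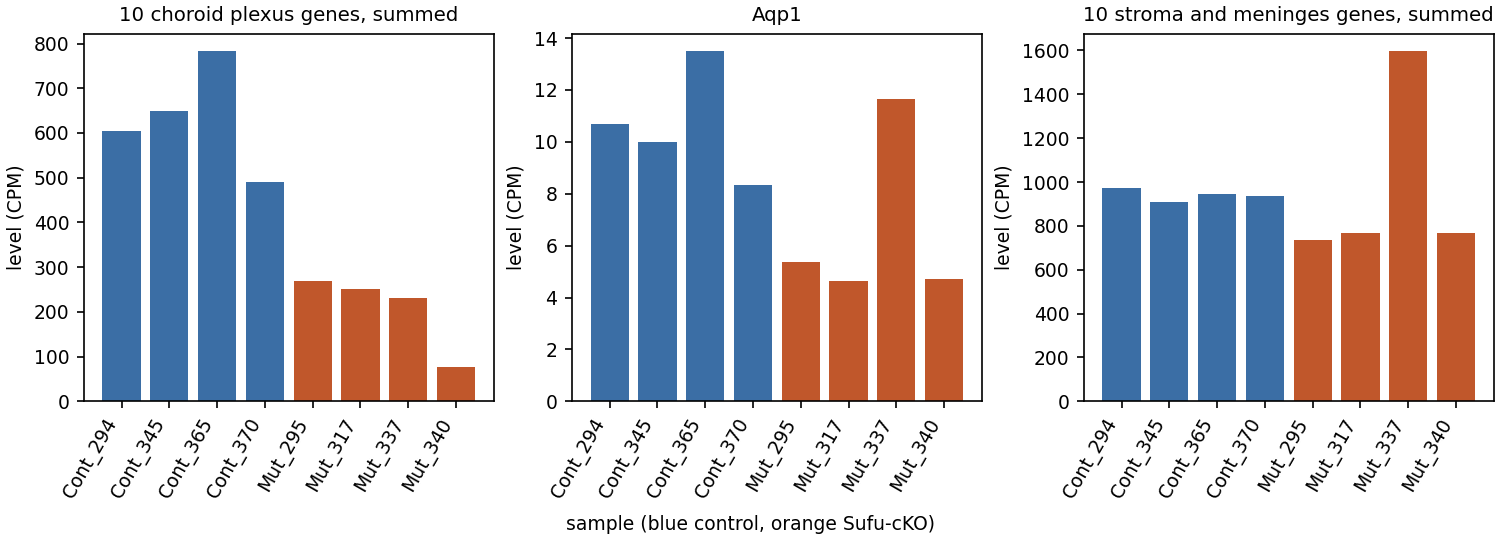
Level in CPM (bars from 0) in each control (blue) and Sufu-cKO (orange) sample, for the 10 plexus genes summed, for Aqp1, and for 10 stroma and meninges genes summed. The plexus sum is lowest in Mut_340 (76.8 CPM), whereas among Sufu-cKO samples Aqp1 (11.6 CPM) and the stroma sum (1596 CPM) are highest in Mut_337.

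A secreted antagonist and a calmodulin-like protein completed the set, and both fell. Sostdc1 (ENSMUSG00000036169, chromosome 12, 36314169 to 36318452), which antagonises BMP and WNT ligands, measured 6.86, 6.05, 6.82 and 5.34 CPM in control and 4.30, 3.41, 4.57 and 2.03 CPM in Sufu-cKO samples. It fell 1.75-fold (log2 fold change -0.81, SE 0.221, adjusted p = 0.0356 in edgeR, n = 4 each), with no overlap. Sostdc1 lost its call without Cont_294, Cont_345, Cont_365 or Mut_317 (adjusted p from 0.0785 to 0.1 in edgeR). Calml4 (ENSMUSG00000032246, chromosome 9, 62858104 to 62875918) measured 6.59, 6.27, 7.14 and 4.94 CPM in control and 3.51, 2.71, 3.63 and 1.91 CPM in Sufu-cKO samples. It fell 2.12-fold (log2 fold change -1.08, SE 0.207) and had the smallest adjusted p of the set (edgeR, 0.00523, n = 4 each). Mut_340 was lowest for both genes, though less far from its group than for Kcne2.

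The number of called genes depended on single libraries. Calml4, Folr1 and Htr2c were called in all 8 fits that left out 1 sample. Without Mut_340, 8 of 9 were called (all but Aqp1), where 5.12% of all tested genes fell, and without Mut_337 5 were (5.22%). Those 5 were Folr1, Htr2c, Calml4, Sostdc1 and Aqp1, so that Kcne2 and Slc4a5 lost their calls and Aqp1 gained one. In the fit without Mut_340 the log2 fold change was -1.005 for Folr1, -1.23 for Slc4a5, -0.62 for Sostdc1 and -0.93 for Calml4. Without Cont_294, Cont_345 or Cont_365, 3 were called each time, where 4.14%, 3.48% and 3.84% of all tested genes fell. With both Mut_337 and Mut_340 left out, a choice made after the data were seen, all 9 were called, where 3.78% fell. DESeq2 called 8 (6.35% of its tested genes fell), limma-voom 7 (5.77%), and the authors' deposited table lists 8 with a false discovery rate under 0.05 and a fold change under 1 (3.1% of all its genes). In DESeq2's fit Aqp1, and in the authors' table Kl and Aqp1, were not called.

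The same samples tended to be low or high across the plexus genes. Cont_370 was lowest of the controls for 8 of the 10 genes, and Cont_365 highest for 7. Relative to the control mean, the mean over the 9 tested genes was -1.06, -1.19, -1.08 and -2.54 log2 units in the 4 Sufu-cKO samples. Mut_340 therefore lay more than 1 log2 unit under the other 3, which lay close together. Its Sufu level (35.9 CPM) was the lowest of the 8 samples, with Mut_337 next (37.4 CPM). Its total count (31799146) was inside the range of the other libraries. Its cortical marker sum (2167 CPM) was the highest among Sufu-cKO samples (1810 to 2167 CPM), and its hem gene sum (372 CPM) the lowest of all samples. The cause of the low plexus level in Mut_340 was not tested.

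**Figure D3:**
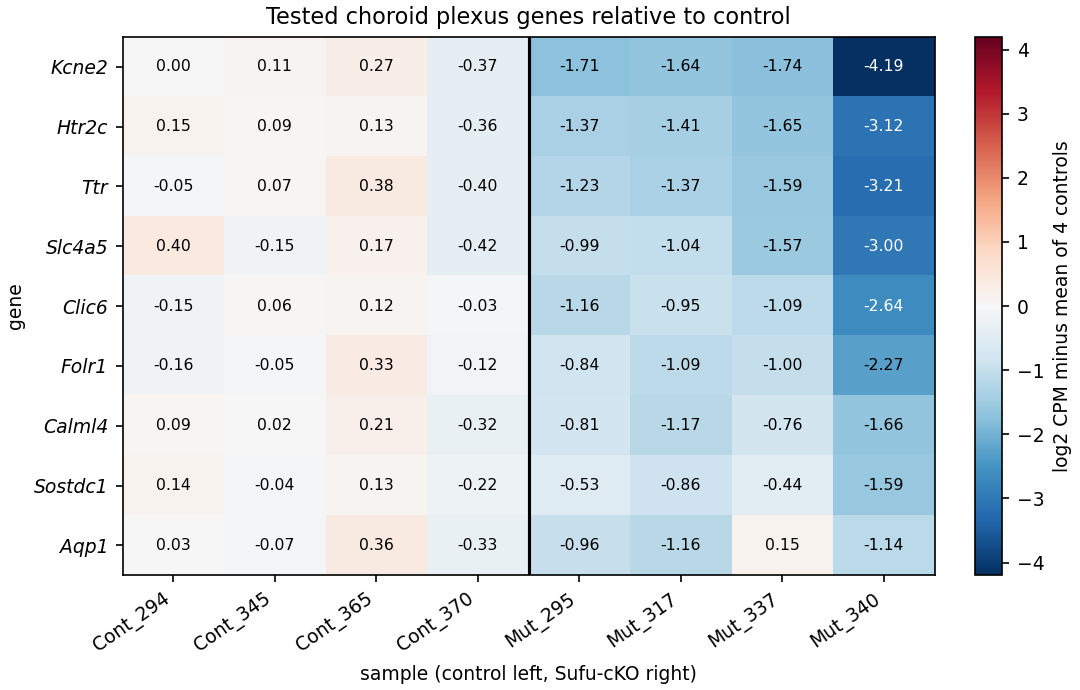
Log2 CPM of the 9 tested plexus genes minus the mean of the 4 controls (colour and number) in each sample, genes ordered by their mean in Sufu-cKO. The Mut_340 column is darkest, down to -4.19 for Kcne2, and the only value above 0 among Sufu-cKO samples is Aqp1 in Mut_337 (0.15).

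The genes did not move by equal amounts within a sample. Set against the mean of the other 8 tested genes in the same library, Kcne2 was lower by 0.73, 0.51, 0.75 and 1.86 log2 units in the Sufu-cKO samples than in the average control. Htr2c (mean -0.47) and Ttr (mean -0.43) were also relatively lower in all 4 Sufu-cKO samples than in any control. Sostdc1, at 0.60, 0.37, 0.71 and 1.07, was relatively higher in all of them, and Folr1, Clic6, Slc4a5, Calml4 and Aqp1 overlapped. Ttr made up 73.0%, 73.7%, 76.0% and 70.3% of the summed level in control and 72.7%, 69.9%, 66.0% and 64.0% in Sufu-cKO samples. These relative values are a description with no test.

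Per length of exon, the genes differed widely in level. In control samples Ttr reached 392 ± 87.0 CPM per kb (SD, n = 4), followed by Clic6 (20.2 ± 1.61) and Kcne2 (15.8 ± 2.83), whose ranges overlapped. Next came Aqp1 (4.05), Sostdc1 (3.52) and Folr1 (3.39), then Htr2c (2.18), Calml4 (1.71) and Slc4a5 (1.45), and last Kl (0.0373 CPM per kb). Within each of these trios neighbouring genes overlapped between samples, and the steps from one trio to the next did not. In Sufu-cKO samples the order was the same except that Calml4 (0.807) stood above Htr2c (0.641 CPM per kb). With the longest transcript as the length, control Folr1 (5.93) and Htr2c (4.16 CPM per kb) moved above Aqp1, so the order of the middle genes depends on the length used.

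Promoter windows from RefSeq (GRCm38.p6, 250 bases before to 50 after a start site) were read for 6 of the 10 genes, in 7 windows. Ttr, the most abundant gene of the set, was left out of this search, and Folr1, Clic6 and Sostdc1 had no window. Both strands were searched for TAATCC (OTX2), GTAAACA (FOXJ1 and other forkhead factors), TCAAAG (TCF and LEF), GGTGGTC (GLI) and GTTGCC (RFX, factors of cilium genes). The first 4 had 0 matches in the 7 windows, and they occur in 7.06%, 3.65%, 16.0% and 2.8% of all 32851 windows. GTTGCC, found in 4111 of the 32851 windows, occurred in 1 Kcne2 window and in the Aqp1 window, the genes with the largest and the smallest log2 fold change of the set. These are shown because they alone held a match, in capitals (on the minus strand for Kcne2, as GGCAAC, from position -109, and on the plus strand for Aqp1, from position -111). Both run 5′ to 3′ on the plus strand, at chr16:92292139-92292438 and chr6:55336049-55336348.
Kcne2: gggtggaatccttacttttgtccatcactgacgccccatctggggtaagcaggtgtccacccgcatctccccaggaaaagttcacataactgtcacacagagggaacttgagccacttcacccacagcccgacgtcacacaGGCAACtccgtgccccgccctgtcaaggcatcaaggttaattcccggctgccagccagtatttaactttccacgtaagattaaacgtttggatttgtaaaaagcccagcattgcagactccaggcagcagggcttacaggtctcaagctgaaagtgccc
Aqp1: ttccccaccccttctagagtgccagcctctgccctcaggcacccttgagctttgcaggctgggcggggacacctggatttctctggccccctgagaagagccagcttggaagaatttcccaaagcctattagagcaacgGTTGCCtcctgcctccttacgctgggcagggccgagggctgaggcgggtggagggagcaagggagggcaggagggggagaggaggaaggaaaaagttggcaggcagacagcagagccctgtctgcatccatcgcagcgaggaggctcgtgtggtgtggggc
A match is only the letters, not a bound site, and no match says only that the letters are not in that window.

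Other genes of plexus epithelium fell in part. Beside the counts of each list from here on, 5.64% of all tested genes fell and 5.34% rose. These shares are of the fit with all 8 samples, in which 867 genes fell. In the fits that left out 1 sample 542 to 897 genes fell. Of 18 tested transporters and channels outside the set, 6 fell and 12 did not pass (median log2 fold change -0.33), but without Cont_365 or Mut_317 3 fell. Car14, a membrane carbonic anhydrase that feeds bicarbonate transport, measured 67.9, 69.6, 74.9 and 60.3 CPM in control and 30.5, 31.6, 27.5 and 21.7 CPM in Sufu-cKO samples (log2 fold change -1.29, adjusted p = 2.19e-05 in edgeR, n = 4 each). Car12, another carbonic anhydrase, fell by 1.30, Kcnj13, an inward rectifier potassium channel, by 1.75, and Slco1c1, a thyroxine transporter, by 0.72 on the log2 scale. Slc13a4 and Slc29a4 made up the 6. Slc12a2 (-0.0068), a sodium, potassium and chloride cotransporter of many cells, did not pass and overlapped between groups. Slco1c1 lost its call without Cont_345, Cont_365, Mut_317 or Mut_340 (adjusted p from 0.0509 to 0.0626 in edgeR).

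Among 14 tested secreted proteins, receptors and enzymes, 4 fell, 1 rose and 9 did not pass (median -0.38). With DESeq2 7 fell, where 6.35% of its tested genes fell, and without Mut_295 7 fell. Enpp2, the enzyme autotaxin that makes lysophosphatidic acid, fell from 34.1 ± 4.81 to 20.3 ± 1.96 CPM (SD, n = 4 each; adjusted p = 0.000933 in edgeR). Spint2 (-0.57), a protease inhibitor, Vat1l (-0.42) and Ace also fell. Of 9 tested junction and cytoskeleton genes 3 fell and 6 did not pass (median -0.66), and 5 fell without Mut_295. The barrier claudins were among them, with Cldn2 at 1.06, 1.17, 1.52 and 0.904 CPM in control and 0.463, 0.352, 0.469 and 0.129 CPM in Sufu-cKO samples (log2 fold change -1.70, adjusted p = 0.00740 in edgeR). Cldn1 fell by 1.21, and Ocln, the junction protein occludin, by 0.66, a call lost without Cont_365 (adjusted p = 0.0593 in edgeR) or Mut_317 (0.0539).

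Motile cilium genes also fell in part. Of 12 tested, 6 fell and 6 did not pass, and all 12 had a log2 fold change below 0 (median -0.99). For 9 all Sufu-cKO samples were below all controls, which held for 7.86% of all tested genes. Spag6, of the central apparatus of the axoneme, measured 6.76, 6.42, 7.27 and 5.65 CPM in control and 2.95, 3.10, 3.37 and 1.71 CPM in Sufu-cKO samples (log2 fold change -1.23, adjusted p = 0.00176 in edgeR, n = 4 each). Rsph4a, a radial spoke protein, fell by 1.18, Dnah11, a dynein heavy chain, by 1.17, and Tekt1, a tektin of ciliary microtubules, by 0.94. Ciliated cells other than plexus epithelium were not separated from it here.

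**Figure D4:**
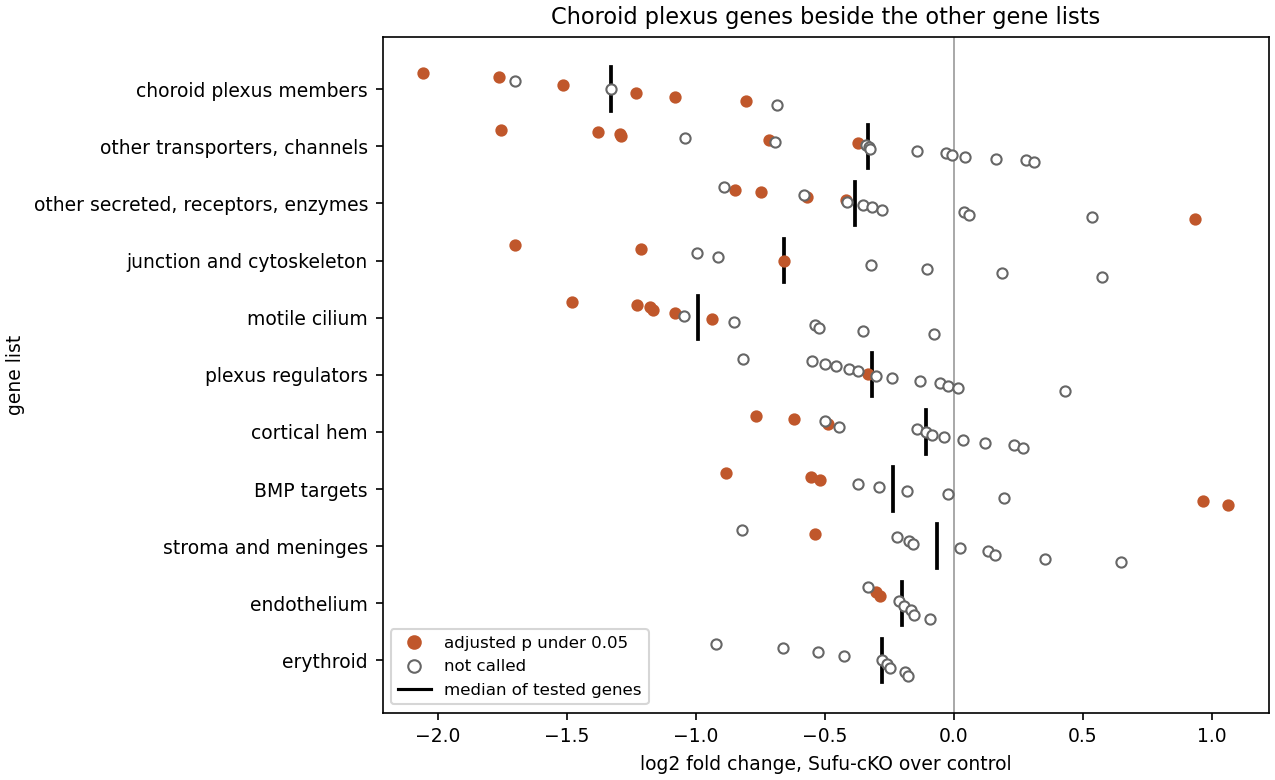
Log2 fold change (Sufu-cKO over control, horizontal axis) of each tested gene, by list (vertical axis), with filled points at an adjusted p under 0.05 and a bar at the list's median. The plexus set (median -1.33) and motile cilium genes (-0.99) lie farthest left, and regulators (-0.32) and cortical hem genes (-0.11) nearer 0.

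The list of regulators of plexus and multiciliated cells, and that of the neighbouring cortical hem, had medians nearer 0 than the plexus set. Of 14 tested regulators of plexus and multiciliated cell fate 1 fell and 13 did not pass (median -0.32), where 5.64% of all tested genes fell. Without Mut_337 4 fell (Rfx4, Otx2, Msx1 and Msx2), where 5.22% of all tested genes fell. DESeq2 called 3 (Rfx4, Otx2 and Lmx1a), where 6.35% of its tested genes fell. The gene that fell was Rfx4, a factor of cilium genes in the dorsal midline, from 78.0 ± 5.76 to 61.9 ± 4.99 CPM (SD, n = 4 each; adjusted p = 0.0120 in edgeR). Otx2 measured 45.3, 33.0, 36.2 and 46.0 CPM in control and 30.6, 22.0, 36.7 and 20.3 CPM in Sufu-cKO samples and was not called (log2 fold change -0.55, adjusted p = 0.129 in edgeR), but without Mut_337 it was (-0.73, adjusted p = 0.0212 in edgeR). Lmx1a (-0.50, adjusted p = 0.0720 in edgeR) was not called either, except by DESeq2 (adjusted p = 0.0171) and without Mut_317 (0.0416 in edgeR). Foxj1, the master factor of motile cilia, measured 24.3, 29.5, 33.3 and 29.4 CPM in control and 21.0, 18.7, 18.8 and 7.56 CPM in Sufu-cKO samples. Its groups did not overlap, and it was not called (log2 fold change -0.82, adjusted p = 0.125 in edgeR), but without Mut_340 it was (-0.58, adjusted p = 0.00661 in edgeR). Rfx3, also known from cilium genes, stood at 0.02, a value near 0 whose sign depended on the scaling.

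Of 13 tested hem genes 3 fell and 10 did not pass (median -0.11), where 5.64% of all tested genes fell. Wnt5a, a non-canonical WNT ligand, measured 45.4, 49.0, 43.1 and 43.5 CPM in control and 29.6, 29.9, 29.0 and 29.4 CPM in Sufu-cKO samples (log2 fold change -0.62, adjusted p = 6.93e-05 in edgeR). Dkk3, a secreted glycoprotein, fell by 0.77 and Bmp7 by 0.49, a call lost without any 1 control or Mut_317 (adjusted p from 0.0804 to 0.111 in edgeR), with library totals (0.0518) or with no low-count filter (0.0728). Wnt3a (-0.09) and Wnt2b (-0.14), ligands that define the hem, overlapped between groups, and Gdf7 had 0 counts in all 8 samples. Of 10 BMP targets 3 fell (Smad6, Smad7 and Id4), 2 rose (Id2 and Smad9) and 5 did not pass (median -0.24), and without Mut_337 5 fell.

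Genes of other cell types bear on what the libraries held. Of 10 stroma and meninges genes Tbx18 fell (-0.54, adjusted p = 0.00333 in edgeR) and 9 did not pass (median -0.07). Without Mut_337 7 fell, where 5.22% of all tested genes fell. In that fit Col3a1 went from 0.03 to -0.24. Of 8 endothelial genes Kdr (-0.29) and Cdh5 (-0.30) fell and 6 did not pass (median -0.20). The Cdh5 groups overlapped, and its call was lost with library totals (adjusted p = 0.0502 in edgeR), without robust estimation (0.0551) and without Cont_294, Cont_365, Cont_370, Mut_295, Mut_317 or Mut_340 (0.0704 to 0.138). Of 9 erythroid genes edgeR called 0 (median -0.28), 4 had an unadjusted p under 0.05, and DESeq2 called 1 and limma-voom 0. The range of the summed erythroid level was 3408 to 4554 CPM in control and 2918 to 3328 CPM in Sufu-cKO samples, and the part of vessels and blood in the plexus values was not tested.

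The hindbrain also has a choroid plexus, but hindbrain markers were nearly absent. Of 8, Hoxb2 and Hoxb3 had 0 counts in all samples, and the summed level was 0.109 to 0.309 CPM in control and 0.0646 to 0.282 CPM in 3 Sufu-cKO samples. Mut_337 reached 1.96 CPM through En1, with 53 counts there and at most 1 elsewhere. Liver, another source of Ttr, was low as well, with Alb at 0 to 3 counts and a summed level of 6 genes of at most 0.706 CPM. In the pigment epithelium of the eye, which also makes Ttr, Tyr and Rpe65 had at most 1 count per sample. Tyrp1, which was not tested, had 20, 13, 27 and 11 counts in control and 4, 6, 2 and 9 in Sufu-cKO samples. Of the 3 tested genes of that list 2 fell, Mitf (-0.97) and Rlbp1 (-1.19). Mitf went from a mean of 5.89 to 3.01 CPM and Rlbp1 from 61.0 to 26.8 CPM. Which cells the Rlbp1 transcripts came from was not tested. Diencephalon genes were present, with a summed level of 83.9 to 94.5 CPM in control and 76.6 to 91.2 CPM in Sufu-cKO samples. Of 5 tested, Tcf7l2 rose (0.92), Lhx9 fell (-0.56) and 3 did not pass (median 0.19). Of the 8 cortical genes 2 rose (Pax6 and Tbr1) and 3 fell (Emx1, Emx2 and Lhx2), with a median of -0.22. Which brain region the plexus transcripts came from was not tested.

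Genes outside the set were then ranked by how closely their log2 CPM, centred on its own mean, followed the centred mean of the 9 tested plexus genes over the 8 samples, measured as a root mean square (RMS) difference. The closest of 12580 genes was Dnajb13, a radial spoke protein of motile cilia, at 0.177 log2 units, where the plexus genes themselves lay at 0.144 (Folr1) to 0.563 (Aqp1) and the median gene at 0.876. Dnajb13 measured 3.70, 3.06, 3.06 and 2.91 CPM in control and 1.29, 1.06, 1.47 and 0.452 CPM in Sufu-cKO samples. It was followed by Wfikkn2, Prkcq, Dcdc2a, Cfap52, Spag6, Ttc21a, Krt18, Pifo and Fhad1, at 0.209 to 0.235. Of these Cfap52 and Spag6 encode axonemal proteins, Wfikkn2 a secreted protein that binds TGF-beta family ligands, and Krt18 a keratin of simple epithelia. All 10 were lowest in Mut_340, and the groups did not overlap for any of them. Because they were chosen for likeness to a profile that contains the genotype difference, their own fold changes (-1.57 to -0.996) are a description.

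**Figure D5:**
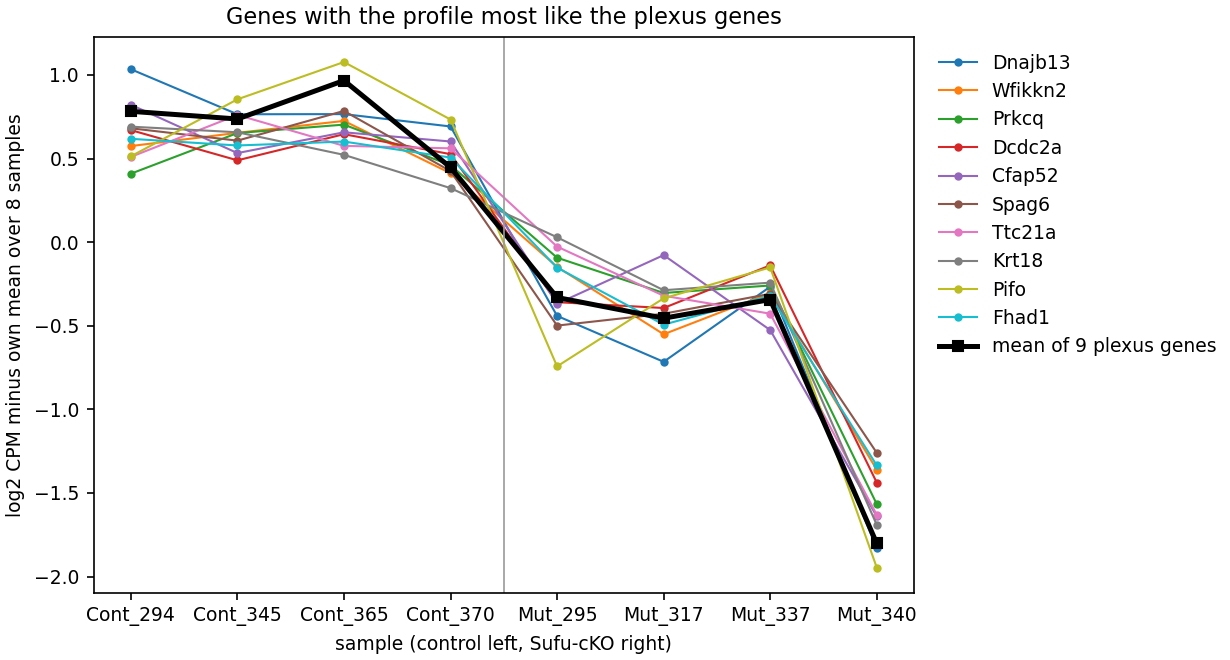
Log2 CPM minus the gene's own mean over 8 samples (vertical axis) for the 10 genes most like the plexus set (thin lines) and the mean of the 9 tested plexus genes (black), by sample. Lines only join the points of a gene. All 10 are lower in each Sufu-cKO sample than in each control, and lowest in Mut_340.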

How the data were processed

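Qiagen columns gave the RNA of the 8 samples and a stranded mRNA kit the libraries, per the labels' protocols. STAR 2.4.2a and GRCm38 are named in the submitters' processing notes. How reads were counted, with which strand setting, and what made the deposited statistics is not given in the sources used here. Raw counts per gene, deposited by the authors, were what was tested. The authors' table also has a normalised signal, equal to each count over a size factor of its sample, and per gene a Sufu-cKO to control fold change (ratio), p-value and false discovery rate. A spreadsheet formula stood in place of 1 gene ID and was restored. Value columns matching no sample numbered 0.

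R 4.3.3 and edgeR 4.0.16 were used: filterByExpr (minimum count 10, minimum total 15) kept 15382 of the 25299 genes with any count, TMM scaled the libraries, and a 2-sided robust quasi-likelihood F-test with Benjamini-Hochberg adjustment compared genotypes. SEs are the log2 fold change over the root of F. Samples within a group differed by more than sampling noise (chi-square per degree of freedom of at least 8.90), so each counted once. No label says whether samples are separate embryos, and p-values then measure only how these samples vary, which may be technical. Log2 CPM used a prior count of 2. Exon lengths came from GENCODE M21. The procedure was tested on simulated data in which genes were drawn independently and no library stood apart. That simulation does not cover calls that depend on libraries such as Mut_340 and Mut_337.

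The members and 15 other gene lists were chosen with earlier results of these data known. Named genes were the members, from each list up to 4 called genes by smallest p (at least 2, filled with the most abundant), and the 10 closest in profile (at least 1 CPM on average; unnamed gene models left out). That rule spoke of 10 members, and 9 had values. Other list genes were named after their values were seen. Values of a few list genes are not reported here. Alternatives were 3 other scalings, no filter, a filter of 1 CPM in 4 samples, DESeq2 1.42.0, voom from limma 3.58.1, no robust estimation, longest transcripts, and each sample left out.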

Additional observations from a re-analysis of the deposited data

Results flagged for a closer look

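The level of each of the 10 plexus genes was screened within each genotype for a sample far from the other 3, 20 groups in all, of which chance alone marks about 1. Htr2c was marked in control for Cont_370, at 15.6 CPM with the next sample at 21.4 CPM. Kcne2 was marked in Sufu-cKO for Mut_340, at 1.45 CPM with the next sample at 8.21 CPM. Aqp1 was marked in Sufu-cKO for Mut_337, at 11.6 CPM with the next sample at 5.36 CPM. The value of each of these genes without the sample it was marked for stands beside its result above.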

How the results depend on the processing

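No paired analysis was possible because the sample numbers in the titles differ between the genotypes. The number of plexus genes that fell was 6, and 4 to 8 over the 8 planned changes of scaling, filter, test or estimation. Leaving out 1 sample gave 3 to 8 (3 without Cont_294, Cont_345 or Cont_365). No alternative run called a plexus gene higher, and every log2 fold change of the 9 kept its sign. Without a low-count filter Kcne2 and Slc4a5 were not called (edgeR adjusted p = 0.0792 and 0.115). The total of called genes was 1689, and 1079 without Cont_345. Counts of list genes that fell moved by over 1.5 times for regulators (1, but 3 with DESeq2, 4 without Mut_337, 2 without Mut_317 or Mut_340), transporters (6, but 3 without Cont_365 or Mut_317), secreted proteins (4, but 7 with DESeq2 or without Mut_295), junction genes (3, but 5 without Mut_295), BMP targets (3, but 5 without Mut_337), stroma (1, but 7 without Mut_337), endothelium (2, but 1 under 8 alternatives) and erythroid genes (0, but 1 under 6). Where 0 had risen, 1 hem gene (Wnt8b) rose without Cont_370 and 1 junction gene (Epcam) with DESeq2, with limma-voom and without Cont_370. The cause was not tested. Rfx3 (0.02) changed sign with upper-quartile scaling (-0.0011) and library totals (-0.00093), and with 1 sample left out it ranged from -0.026 to 0.076. Col3a1 (0.03) did so with limma-voom (-0.022), and with 1 sample left out it ranged from -0.24 (without Mut_337) to 0.11. Per kb, control levels with the longest transcript were 2.59 CPM for Calml4 and 0.0597 CPM for Kl. Depth limits Kl most, with 4 to 14 counts per sample.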

Other observations

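Among the controls, Cont_370 broke the order that the plexus and hem sums otherwise shared. Both sums ascended from Cont_294 to Cont_345 to Cont_365, the plexus sum at 605, 649 and 783 CPM. Cont_370 had the lowest summed level of the 10 plexus genes among controls (491 CPM) and the highest summed level of the 14 hem genes (549 CPM, against 446, 462 and 493 CPM in Cont_294, Cont_345 and Cont_365). Lmx1a, which both plexus precursors and hem express, was highest there too, at 28.7 CPM against 20.8, 24.1 and 25.8 CPM. Among Sufu-cKO samples Mut_340 was lowest in both sums, at 76.8 CPM for plexus and 372 CPM for hem genes. These are values of single libraries.

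Epcam, an adhesion protein of epithelia, stood higher in all 4 Sufu-cKO samples (3.87, 3.17, 4.10 and 3.78 CPM) than in any control (2.71, 2.08, 2.21 and 2.99 CPM), with a log2 fold change of 0.58 that missed the threshold in edgeR (adjusted p = 0.0519). DESeq2 (adjusted p = 0.0239), limma-voom (0.044) and edgeR without Cont_370 (0.0395) called it.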
